A study of Rattus norvegicus with 6 samples.

Results

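Among the REST binding sites called by ChIP-seq in proliferating and quiescent rat neural progenitors, 22 sites of the proliferating cells had no site of the quiescent cells within 50 bp of their centre, and those of 7 genes are described here. The genes are Adm, Hes3, Pou3f1, Slitrk1, Lrtm2, Cntn6 and Fam154b, 7 of the 1380 genes named for a site in either condition, and the other 15 of the 22 sites were annotated to other genes. All sites annotated to them were taken from both peak tables, which gave 7 sites in the proliferating and 3 in the quiescent condition. The cells were HCN cells, a line derived from adult rat hippocampal neural stem cells and grown as a monolayer. Cells in FGF2 proliferate and are called TAP, after transient-amplifying progenitors, and cells in FGF2 with BMP4 are called iQNP, for induced quiescent neural progenitors. Each condition had 1 ChIP library with a commercial REST antibody, 1 with a mix of the homemade antibodies REST14 and REST17, and 1 input library. No RNA was measured in these libraries, so the identity of the cells could not be checked against marker genes here. The paper compared proliferation in the 2 conditions by staining and flow cytometry. It also reports RNA-seq of electroporated cells in both, which was not used here. A line in culture lacks the surroundings of the hippocampal niche.

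REST is a zinc-finger repressor that binds RE1 elements, often at genes used by neurons, and recruits corepressors that keep those genes silent in neural stem cells and in cells outside the nervous system. Proteins of very different kinds are encoded by the 7 genes. Adm encodes adrenomedullin, a secreted vasodilator peptide. Hes3 is a basic helix-loop-helix repressor of the Hes family, and Pou3f1, also known as Oct6, is a POU domain transcription factor of neural and Schwann cells. Slitrk1 and Lrtm2 are membrane proteins with leucine-rich repeats, and Slitrk1 acts in neurite growth and at synapses. Cntn6 is a contactin, an adhesion protein of the immunoglobulin superfamily anchored to neuronal membranes. Fam154b is now known as Saxo2, a member of a family of microtubule-associated proteins of cilia and flagella.

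Tags are the sequenced fragments counted in the peak window of a library, and normalized tags are the same number scaled to 10000000 tags per library. In units of 1000000 tags, the depths behind these values were 28.3 (commercial) and 29.8 (homemade) for iQNP and 25.7 and 25.2 for TAP. A given number of normalized tags thus had a similar counting error in both conditions. Only sites called with both antibodies are in the tables, and the site with the fewest tags had 12 in each of the 4 libraries, with at least 4.01-fold more tags than the input. A TAP site without an iQNP site may therefore still have held tags in iQNP below these limits or a peak with 1 antibody, which was not analysed here. The 2 libraries of a condition differ in the antibody, so an SD over them holds the difference between reagents as well as chance. Intervals on tag counts are exact 95% Poisson intervals that cover counting error only. The 7 genes were chosen by the calls in iQNP and TAP, and with earlier results of these data known. Differences between the conditions at their sites, and between these and other sites, are therefore given as a description, with no test.

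Of the 778 TAP sites, 756 were shared with 1 of the 1775 iQNP sites within 50 bp, so most iQNP sites had no TAP site there. The remaining 22 TAP sites were 2.83% of the TAP sites (95% Wilson interval, 1.87 to 4.24), and 7 of the 22 are the sites described here. Their distances to the nearest iQNP site fell in separate ranges. Fam154b and Cntn6 lay 52.5 and 76.0 bp from an iQNP site, and the other 5 lay from 9.48 kb (Hes3) to 1.34 Mb (Adm) from one. With a limit of 200 bp, 17 TAP sites (2.19%) had no iQNP site, and Adm, Hes3, Pou3f1, Slitrk1 and Lrtm2 were still among them. Just inside the limit of 50 bp were the sites of Loxl4 (49.0 bp, 10.8 normalized tags in TAP and 23.1 in iQNP) and Nptx1 (50 bp, 7.46 and 18.6). Just outside it were those of Fam154b (52.5 bp, 17.9 and 36) and Grk1 (53.0 bp, 11.2 and 23.4). Shared sites had a median shift between the conditions of 12 bp (quartiles, 5.5 and 21 bp).

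**Figure D1:**
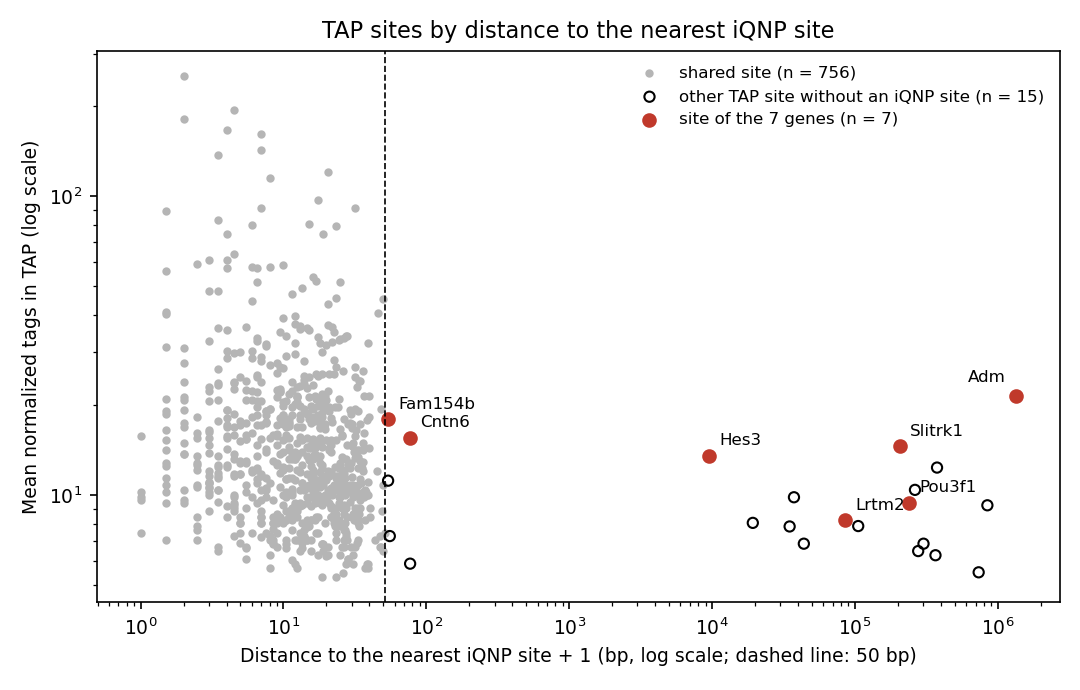
Mean normalized tags in TAP (y axis, tags per 10000000, log scale) of each TAP site against the distance of its centre to the nearest iQNP site plus 1 bp (x axis, log scale), with shared sites in grey, the 7 sites in red and the other 15 TAP sites without an iQNP site as open circles. Fam154b and Cntn6 sit just right of the dashed line at 50 bp, and the other 5 sites lie beyond 9 kb, with Adm farthest to the right and highest of the 22.

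The Adm site had the most tags of the 7. It lies at chr1:168454581-168454652 (rn4), in sequence annotated as intergenic, 74.4 kb downstream of the transcription start site (TSS) of Adm. It held 65 tags with the commercial antibody (interval, 50.2 to 82.8) and 44 with the homemade antibodies (32.0 to 59.1), or 25.3 and 17.5 normalized tags (mean 21.4 ± 5.52, SD, n = 2). The input, scaled to each library, had 1.8 tags there for both, which made the site 35.9-fold and 24.8-fold higher than the input. HOMER's Poisson p against the input was 1.13e-75 and 5.78e-45. By mean normalized tags the site stood at the 81.2th percentile of TAP sites. Of the 149 TAP sites with at least as many tags, itself included, 1 had no iQNP site, which was this one. No iQNP site was annotated to Adm. The nearest was a promoter site of the ribosomal protein gene Rpl27a, 1.34 Mb away. The Rpl27a site had 6.03 and 5.37 normalized tags in iQNP, at the 2.68th percentile of iQNP sites, and was not called in TAP. The next TAP site, of Ric3, lay 1.80 Mb away, so no other called site of either condition was within 1 Mb of the Adm site.

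The sites of the transcription factor genes Hes3 and Pou3f1 are both on chromosome 5. That of Hes3, at chr5:169517341-169517425, lies in exon 4 of 4, 1476 bp from the TSS. It held 32 tags (commercial; 21.9 to 45.2) and 37 (homemade; 26.1 to 51), or 12.4 and 14.7 normalized tags (mean 13.6 ± 1.63, SD, n = 2), 17.7-fold and 20.9-fold over input. The commercial value was below the median of its TAP library (13.6) and the homemade value above that of its own (11.9), and their mean stood at the 54.6th percentile of TAP sites. An iQNP site at the promoter of Icmt, the enzyme that methylates prenylated proteins, was 9.48 kb away, with 14.2 and 23.8 normalized tags in iQNP and no call in TAP. The 2 neighbouring sites were called in opposite conditions, but a missing TAP call was common, as 756 of the 1775 iQNP sites were shared. No iQNP site was named for Hes3 itself, and the next TAP site lay 141 kb away.

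Pou3f1 had a weaker site at chr5:143955430-143955514, in intergenic sequence 26.1 kb upstream of its TSS. The commercial antibody gave 26 tags (17.0 to 38.1) and the homemade antibodies 22 (13.8 to 33.3), or 10.1 and 8.74 normalized tags (mean 9.42 ± 0.962, SD, n = 2). The commercial antibody gave a fold over input of 28.7 and the homemade antibodies 12.4. The gap lies mostly in the scaled input, which was 0.9 tags for the former and 1.8 for the latter. Both values come from the 1 TAP input library, where so few tags carry a large counting error. By tags the site stood at the 24.8th percentile of TAP sites and by fold over input at the 58.7th. The nearest iQNP site, of Yrdc, was 240 kb away with 30.9 and 19.8 normalized tags, and that site was also called in TAP. None of the iQNP sites was annotated to Pou3f1.

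The 2 genes for membrane proteins with leucine-rich repeats had their TAP sites within the transcribed gene. For Slitrk1 the site at chr15:93209727-93209783 lies in the 5' UTR, in exon 1 of 1 and 133 bp from the TSS, the shortest distance to a TSS among the 7. It held 39 tags (27.7 to 53.3) and 35 (24.4 to 48.7) in the same order, or 15.2 and 13.9 normalized tags (mean 14.6 ± 0.919, SD, n = 2), 21.6-fold and 19.7-fold over input. Slitrk1 also had an iQNP site of its own at chr15:93004023-93004077, in intergenic sequence 206 kb from the TAP site, and it was the iQNP site nearest to it. That site held 38 (26.9 to 52.2) and 33 (22.7 to 46.3) tags in iQNP, or 13.5 and 11.1 normalized tags (mean 12.3 ± 1.70, SD, n = 2), 10.1-fold and 8.27-fold over input, and was not called in TAP. Slitrk1 thus had 1 site called in each condition, at different places and with nearly equal tags, though most iQNP sites were not called in TAP. Their ranks differed, at the 58.8th percentile of TAP sites and the 32.2nd of iQNP sites, since iQNP sites as a whole had more tags.

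The Lrtm2 site, at chr4:155629903-155629976 in exon 4 of 5 and 8.84 kb from the TSS, was the weakest of the 7. It held 24 tags (commercial; 15.4 to 35.7) and 18 (homemade; 10.7 to 28.4), or 9.33 and 7.15 normalized tags (mean 8.24 ± 1.54, SD, n = 2). The input there was the highest of the 7, at 3.6 and 3.5 scaled tags, and the site was 6.63-fold and 5.08-fold over input, with HOMER's Poisson p at 1.29e-12 and 4.33e-08. Among TAP sites it stood at the 4.24th percentile by fold over input and at the 16.1th by tags. The site was lost when a p of at most 1e-10 or a fold of at least 8 was asked of both antibodies, while those of the other 6 genes passed both limits. No iQNP site was annotated to Lrtm2, and the nearest, of the calcium channel subunit gene Cacna2d4, was 85.2 kb away with 26.6 and 17.1 normalized tags and was called in TAP too.

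**Figure D2:**
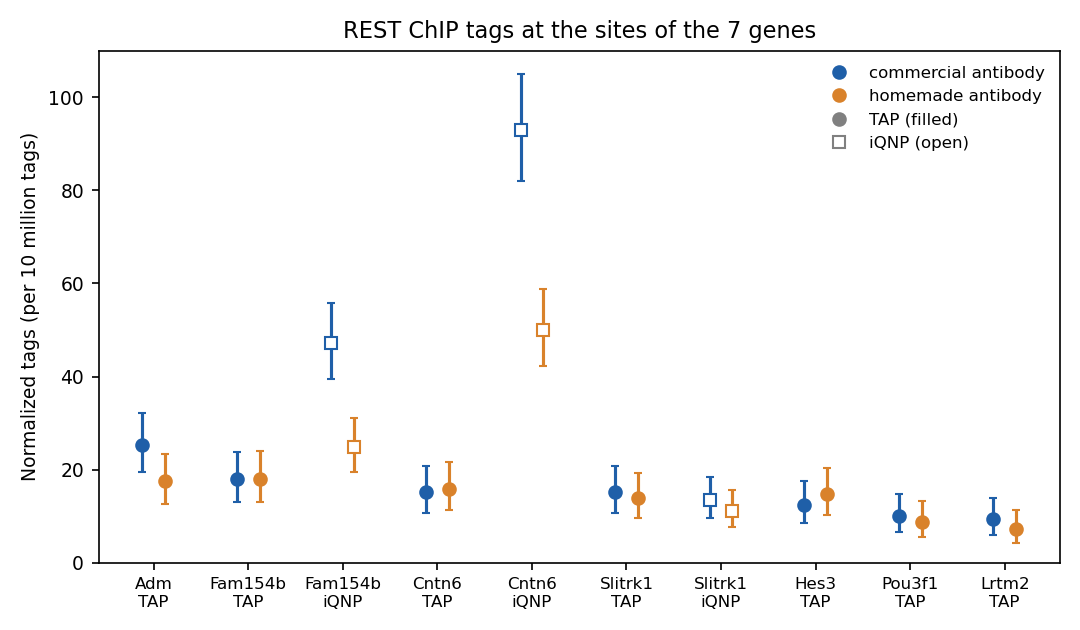
Normalized tags (y axis, per 10000000 tags) at each site of the 7 genes, for the commercial (blue) and homemade (orange) antibodies in TAP (filled circles) and iQNP (open squares), with bars for the exact 95% Poisson interval of the tag count. The intervals of both antibodies overlap at each of the 7 TAP sites, and the iQNP sites of Fam154b and Cntn6 stand above their TAP sites while that of Slitrk1 does not.

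The TAP sites of Cntn6 and Fam154b each had an iQNP site of the same gene beside them, and the peak windows of the conditions overlapped. Cntn6 had its TAP site at chr4:139219451-139219536 and its iQNP site at chr4:139219527-139219612, in intergenic sequence 859 kb and 858 kb upstream of the TSS. In TAP it held 39 tags (27.7 to 53.3) and 40 (28.6 to 54.5), or 15.2 and 15.9 normalized tags (mean 15.6 ± 0.495, SD, n = 2). In iQNP it held 263 (232 to 297) and 149 (126 to 175), or 92.9 and 50 normalized tags (mean 71.5 ± 30.3, SD, n = 2), at the 96.8th percentile of iQNP sites. Both iQNP libraries were above both TAP libraries, and the mean was 4.59-fold higher in iQNP (log2 ratio 2.20), with log2 ratios of 2.61 for the commercial and 1.65 for the homemade antibodies. Of the 756 shared sites, 99.9% had a lower ratio of normalized tags. With TMM scaling of the tags the log2 ratio was 1.10. The windows of the 2 conditions shared 97 bp (commercial) and 91 bp (homemade), and their centres lay 76 bp apart with each.

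The higher tag level at Cntn6 in iQNP came with a higher input. Scaled input tags were 4.7 and 5.0 in iQNP and 0.9 and 0.9 in TAP. Over input, Cntn6 was 55.7-fold and 29.9-fold higher in iQNP and 43.1-fold and 45.1-fold higher in TAP. The log2 ratio of the means thus fell to -0.04, beside a median of 0.81 by fold over input for the 756 shared sites. Each condition had 1 input library, and input tags this few carry a large counting error, for which no interval was computed. The part of the input in the tag difference was not tested.

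Fam154b had its TAP site at chr1:138890947-138891002 and its iQNP site at chr1:138890995-138891059, in intergenic sequence 29.5 kb downstream of the TSS. In TAP the antibodies gave 46 tags (33.7 to 61.4) and 45 (32.8 to 60.2), or 17.9 normalized tags with each (SD 0.0, n = 2), 17.0-fold and 25.4-fold over input. In iQNP they gave 133 (111 to 158) and 74 (58.1 to 92.9), or 47.2 and 24.8 normalized tags (mean 36 ± 15.8, SD, n = 2), 47.0-fold and 37.1-fold over input. Both iQNP values were again above both TAP values, and the mean was 2.01-fold higher in iQNP. The commercial antibody gave a log2 ratio of 1.40 and the homemade antibodies 0.47, and it was 1.01 for the mean, which is close to the median of shared sites (1.06). Fold over input gave 0.99, but TMM scaling, which sets the bulk of shared sites near 0, turned the direction (-0.10). The windows shared 116 and 119 bp, with the centres 57 and 48 bp apart, so that with the homemade antibodies alone the shift was below the limit of 50 bp.

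**Figure D3:**
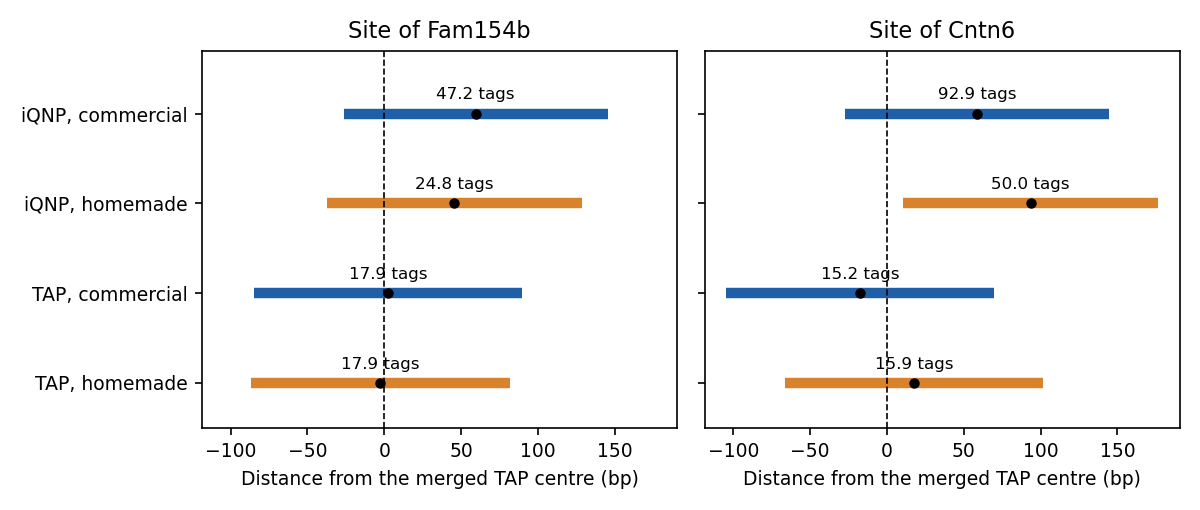
Peak windows of each library (bars) and their centres (points) at the Fam154b and Cntn6 sites, placed by distance in bp from the merged centre of the TAP site (x axis, dashed line at 0), with normalized tags per 10000000 above each bar. At both sites the iQNP windows (top rows) lie to the right of the TAP windows and overlap them, and hold more tags.

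Both of these sites lie in copies of RMER21A, a long terminal repeat of the ERV1 class of endogenous retroviruses. RMER21A held 9 of the 778 TAP sites (1.16%) and 24 of the 1775 iQNP sites (1.35%). Of the 9, 8 had an iQNP site within 200 bp, and 6 had one within 50 bp. These 6 pairs, whose genes were picked out after their values were seen, were annotated to RGD1560691, Ccnc, LOC685046, Smn1, Cyld and Nptx1, with shifts of 5.5 to 50 bp (median 20.8) and log2 ratios of iQNP to TAP tags from 0.98 to 2.10. The shifts of Fam154b and Cntn6 exceed these by the way the sites were chosen, since shifts of up to 50 bp counted as shared. The ratio of Cntn6 (2.20) was just above their highest, that of Smn1. The 9th TAP site in RMER21A, of Rnf6, had 6.87 normalized tags and its nearest iQNP site 302 kb away. iQNP sites in the repeat ranged from 5.18 to 84.1 normalized tags (median 16.9), beside a median of 17.9 for all iQNP sites. Reads from copies of a repeat can align to more than 1 place, and how far this moved the tags or the centres was not tested.

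In TAP, the 7 sites ran from 8.24 normalized tags (Lrtm2) through 9.42 (Pou3f1), 13.6 (Hes3), 14.6 (Slitrk1), 15.6 (Cntn6) and 17.9 (Fam154b) to 21.4 (Adm). Neighbours in this order had overlapping Poisson intervals with each antibody and cannot be ranked. The median of the 7 was 14.6, beside 12.6 for all TAP sites, and their median percentile was 58.8. Fold over input had a median of 20.6 for the 7 and 16.9 for all TAP sites, and put Cntn6 first (44.1 as the mean of both antibodies) and Lrtm2 last (5.86). Scaled input was 0.9 to 3.6 tags at the 7 sites, beside medians of 2.7 and 1.8 over TAP sites for the commercial and homemade libraries. With so few input tags from 1 library, the order by fold over input carries a large counting error. Against the local background, the 7 sites were 9.32-fold to 27.6-fold higher.

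Most TAP sites without an iQNP site had few tags, and the 7 were spread over a wider range. Among the 195 TAP sites with the fewest tags (5.30 to 9.42), 13 had no iQNP site (6.67%), and Pou3f1 and Lrtm2 were 2 of them. Of the next 194, up to 12.6 normalized tags, 4 had none (2.06%), and none of the 7 was there. Of the 194 after that, up to 19.1, 4 again had none, and these were Hes3, Slitrk1, Cntn6 and Fam154b. Of the 195 with the most tags 1 had none (0.513%), which was Adm.

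The other 15 TAP sites without an iQNP site had 5.51 to 12.4 normalized tags (median 7.85), all below the median of TAP sites. Of the 7, 5 were above that median. The 7 were picked from the 22 with earlier results of these data known. Their difference from the other 15 is therefore only a description of the sites chosen and was not tested. The 5 with the most tags of all 22 were Adm, Fam154b, Cntn6, Slitrk1 and Hes3. Kcnc1, a potassium channel gene with its site in the 5' UTR 278 bp from the TSS, came next (12.4). The rest included sites annotated to Grk1, Rps15a, Odf3l1, RGD1559903, Mir598, Spock1, Meis3, Wdr7, Rnf6, Pcbd1, Tmem132d, Tcl1a and Vom2r47, with Grk1, Wdr7 and Tcl1a having an iQNP site within 200 bp.

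The antibodies were compared at each of the 7 TAP sites. The ratio of commercial to homemade normalized tags was 1.45 at Adm (95% Clopper-Pearson interval, 0.972 to 2.17), 1.31 at Lrtm2 (0.679 to 2.55), 1.16 at Pou3f1 (0.631 to 2.14) and 1.09 at Slitrk1 (0.674 to 1.77). It was 1.00 at Fam154b (0.649 to 1.54), 0.955 at Cntn6 (0.598 to 1.52) and 0.847 at Hes3 (0.511 to 1.40). All 7 intervals held a ratio of 1, as did 87.7% of the intervals over all TAP sites, and they are wide at these tag counts. The median log2 ratio was 0.13 over the 7 sites, beside 0.25 over all TAP sites. In iQNP the ratio was 1.89 (1.41 to 2.55) at Fam154b, 1.86 (1.51 to 2.29) at Cntn6 and 1.21 (0.741 to 2.00) at Slitrk1. The commercial antibody thus gave more tags beyond counting error at the first 2 and not at Slitrk1, and it did so at 33.3% of all iQNP sites, where the median ratio was 1.32.

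**Figure D4:**
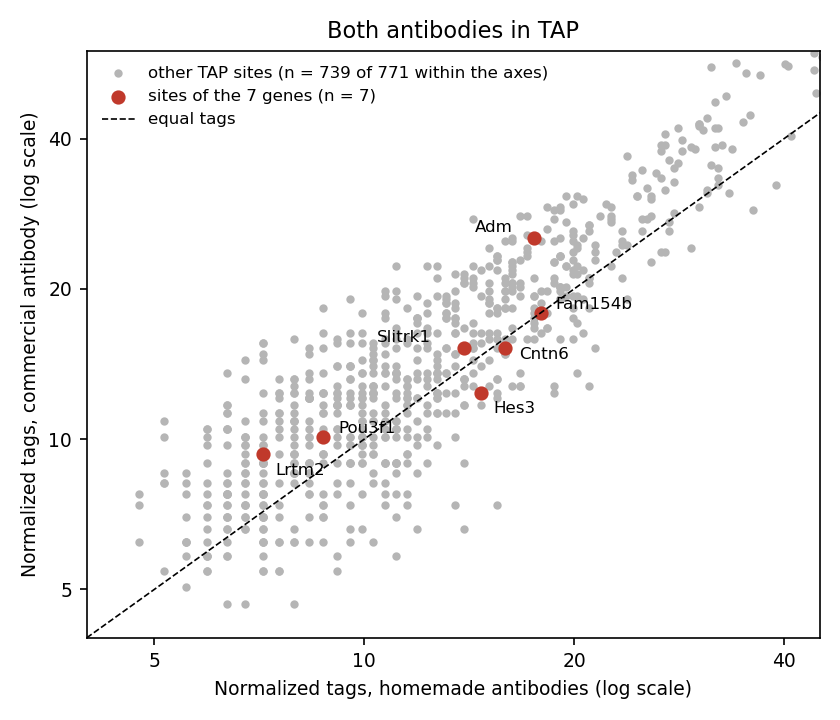
Normalized tags (per 10000000) with the commercial antibody (y axis, log scale) against those with the homemade antibodies (x axis, log scale) at TAP sites, with the 7 sites in red and 739 of the other 771 TAP sites in grey (the rest lie outside the axes). The 7 sites lie close to the dashed line of equal tags and within the cloud of the other sites, with Adm above the line and Hes3 below it.

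By annotation, 4 of the 7 TAP sites were intergenic (Adm, Pou3f1, Cntn6 and Fam154b), 2 were exonic (Hes3 and Lrtm2) and 1 was in a 5' UTR (Slitrk1). None of the 7 was annotated as intronic or promoter, classes that held 30.6% and 8.23% of TAP sites. The Slitrk1 site, annotated as 5' UTR, was nevertheless 133 bp from its TSS. Exons and 5' UTRs together held 24 of the 778 TAP sites (3.08%), 3 of them from the 7 genes. The same classes held 50 of the 1775 iQNP sites (2.82%). The classes joined are those, beside intergenic, that hold sites of the 7, so these shares are a description with no test. Hes3, Slitrk1 and Lrtm2 had their sites within 10 kb of a TSS, as did 248 TAP sites (31.9%). The annotation names the nearest TSS, which need not be the gene that a distant site acts on.

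Of 39 relatives of the 7 genes in 6 families, 6 had an iQNP site (7 sites) and 1 had a TAP site (2 sites). In all, 1380 genes were named for the 1775 iQNP and 778 TAP sites. The share of all genes with a site was not computed, so the counts by family have no background to be read against. Among the POU factors, 3 of 6 had a site. Pou3f2, a neural POU factor known as Brn2, had an iQNP site 217 kb upstream of its TSS with 24.8 and 19.1 normalized tags. Pou4f3, a factor of hair cells, had one in its 3' UTR (exon 2 of 2) with 18.8 and 14.8. Of the contactins 1 of 5 had a site (Cntn3, 13.1 and 11.8 normalized tags in iQNP, 506 kb from the TSS), and of the leucine-rich repeat membrane proteins 1 of 10 (Lrrtm3, 16 and 12.1, in an intron). Calcb, which encodes a calcitonin gene-related peptide, was the 1 of 9 in the adrenomedullin and calcitonin family, with 19.5 and 11.4 normalized tags in iQNP 12.6 kb upstream of its TSS. None of the 8 Hes and Hey repressors other than Hes3 and no site of Fam154a was in either table.

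Pou4f2, a factor of retinal ganglion cells, was the relative with sites in both conditions, and its 2 sites were shared. The calls of these relatives were not used to choose the 7 genes, so the tags could be compared with edgeR's quasi-likelihood test over all 756 shared sites. The site at chr19:31394013-31394074, 5.14 kb from the TSS, held 41.5 and 29.2 normalized tags in the iQNP libraries and 18.3 and 15.5 in the TAP libraries, and rose in iQNP by 1.06 on the log2 scale (SE 0.409, Benjamini-Hochberg adjusted p = 0.0192 by edgeR). The site at chr19:31387226-31387278, 1.66 kb upstream of the TSS, had 36.5 and 19.8 in iQNP and 16.7 and 17.5 in TAP, a log2 ratio of 0.71 (SE 0.395) that missed the threshold (edgeR, adjusted p = 0.0880). In this fit 68.4% of shared sites rose in iQNP and 0.0% rose in TAP, so 1 of 2 is near the background. With the antibody as a block in edgeR both passed (adjusted p = 5.86e-06 and 0.00354), as did 94.8% of shared sites. For more tags in TAP the count was 0 at an unadjusted p under 0.05 in edgeR and 0 by DESeq2 with the same depths, but 51 by edgeR with TMM scaling and 3 by DESeq2 with its own size factors. With TMM scaling the log2 ratios at the Pou4f2 sites were 0.01 and -0.35 (edgeR, adjusted p = 0.987 and 0.285), and with DESeq2's own size factors 0.01 and -0.37 (adjusted p = 0.990 and 0.658), so the call and the direction at the second site rest on scaling by depth. Leaving out a TAP library leaves 1 sample in that arm, which is then assumed to vary like the iQNP libraries, and 0 of the 756 shared sites passed. The log2 ratio of the called site was then 1.19 without the commercial and 0.95 without the homemade TAP library (edgeR, adjusted p = 0.249 and 0.412).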

How the data were processed

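REST ChIP-seq of HCN cells was analysed in TAP and iQNP conditions, with 1 ChIP library for each antibody and 1 input in either condition. Reads were mapped by the authors to rn4 using Bowtie2. Peaks were called by HOMER relative to input (Poisson p of at most 1e-04), and the authors merged peaks of both antibodies within 50 bp. Total tags are counts as deposited. The authors deposited normalized tags (per 10000000 tags) and scaled input tags as a signal, fold over input and over local tags as a ratio, and a p-value against input. The authors' annotation gave the class of each site, its nearest gene and the TSS distance, and 1 repeated site per condition was dropped from it. The labels give antibody 1 as the commercial and antibody 2 as the homemade reagent, and the table columns, whose names end in 1 and 2, were matched to them by that number.

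Here library depths were taken from the ratio of total to normalized tags. Sites were paired one to one, closest first, with centres within 50 bp. Percentiles are the rank of a site from the lowest, as a share of the sites of its condition. Tied sites were given their average rank. Tags at the 756 shared sites were tested with edgeR 4.0.16 (R 4.3.3; quasi-likelihood, depths as library sizes, Benjamini-Hochberg adjustment, threshold 0.05). Nothing says that the libraries came from separate cultures, so p-values measure only the spread between libraries, which may be technical and includes the antibody. On simulated data for this comparison (756 sites, 200 changed by 2 on the log2 scale) edgeR found 99.5% of those changed, with 1.49% false calls. The measured log2 ratios of the 756 shared sites had a median of 1.055, and 754 were higher in iQNP. How edgeR performs at ratios of that size, or with nearly all sites higher in 1 condition, was not tested. Intervals were computed with scipy 1.17.1 in Python 3.11.15. Alternatives were other pairing distances (100 and 200 bp, window overlap of at least 1 bp, any iQNP centre within 50 bp), stricter limits (p at most 1e-10, fold at least 8), at least 20 tags, fold over input, TMM scaling, DESeq2 1.42.0, the antibody as a block, and leaving out each library.

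The 7 genes and the lists of relatives were chosen with earlier results of these data known. Named genes are the 7, the genes of the nearest iQNP sites, of the other TAP sites without an iQNP site and of sites next to the 50 bp limit, and relatives with a site, beside those said to be picked out later. The name of 1 gene among the other TAP sites is not reported here. Site sequences were not used here.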

Additional observations from a re-analysis of the deposited data

How the results depend on the processing

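Over 7 results, 2 of 43 alternative values reversed, 11 moved and 30 stayed within 1.5 times the value for counts or within 1 SD between antibodies for the others. The 22 TAP sites without an iQNP site became 17 at 100 bp, at 200 bp or by window overlap, where Fam154b and Cntn6 dropped out and 5 of the 7 genes were left, 16 of 672 with p at most 1e-10, and 32 of 594 with at least 8-fold over input, a limit that also removes iQNP sites. The median percentile of the 7 sites (58.8) was 59.0 by fold over input and 56.2 to 64.3 with 1 TAP library. The log2 ratio of Cntn6 (2.20) was -0.044 by fold over input and 1.10 with TMM, and that of Fam154b (1.01) was -0.10 with TMM, a scaling that sets the bulk of shared sites near 0. With 1 antibody the ratios were 1.65 to 2.61 (Cntn6) and 0.47 to 1.40 (Fam154b). Shared sites with more tags in iQNP by edgeR (517) were 39 with TMM (51 more in TAP), 3 by DESeq2 with its own size factors (3 more in TAP, 308 without an adjusted p), 509 by DESeq2 with the depths, 396 of 599 with at least 20 tags and 520 of 761 at 200 bp. Leaving out 1 library gave 0 to 716 (412 without the commercial and 716 without the homemade iQNP library, 0 without either TAP library). For the sites of related genes, 1 call became 0 with TMM, 0 by DESeq2 with its own size factors and 0 to 2 without 1 library. With the antibody as a replicate block, 717 shared sites and 2 sites of related genes were called, and the coefficient of variation between libraries fell from 0.211 to 0.0897. The number marks the antibody, and deviations of same-numbered libraries had a correlation of 0.0445 over 756 sites. The limit of 12 tags at any site bounds what the tables can show.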
